A study of Homo sapiens with 5 samples.

Results

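ALCAM, L1CAM, NCAM1, MCAM, CD99, CD44, CDH2 and CDH11 are 8 cell adhesion genes among the 21357 gene symbols of the array. They were followed through every probe set that the platform annotation lists for them, 39 of 54675. ALCAM was included because it is a reported target of miR-483-5p, and the rule that picks the probe sets uses no measured value. RNA came from cultured MHH-ES-1 cells, a human Ewing sarcoma line. They had received a synthetic microRNA mimic at 50 nM by lipid transfection 48 h earlier. The miR-483-5p mimic was measured on 2 arrays, the miR-483-3p mimic on 1 array and a scrambled mimic, the control, on 2 arrays. All groups share the cell line, the transfection, the dose and the time, and no untransfected cells were analysed here. By the labels, each pair holds an array and its repeat, with no word on separate cultures. The p-values below therefore rest on array-to-array spread alone, and that spread may be technical. In bulk RNA, fewer cells of a kind and less RNA per cell cannot be told apart.

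A microRNA pairs through its seed with sites that lie mostly in the 3' untranslated regions of messenger RNAs and lowers their stability or translation. A mimic supplies 1 chosen strand, and miR-483-5p and miR-483-3p are the strands from opposite arms of the same hairpin, within the IGF2 gene. Cell adhesion molecules hold cells to each other and to the matrix. ALCAM (CD166), MCAM (CD146), NCAM1 (CD56) and L1CAM belong to the immunoglobulin superfamily, which binds to itself or to partners on the next cell. CDH2 (N-cadherin) and CDH11 are calcium-dependent cadherins, CD44 is a receptor for the matrix sugar hyaluronan, and CD99 is a small surface glycoprotein used as a diagnostic marker of Ewing sarcoma.

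The arrays had median signals of 39.2 and 44.9 for miR-483-5p, 41.9 for miR-483-3p and 44.4 and 43.2 for the control. The 3'-to-5' signal ratio of GAPDH, which reflects RNA integrity, was 1.09 and 1.10 after miR-483-5p, 1.06 after miR-483-3p and 1.02 and 0.996 in control cells. Its part in the differences below was not tested. All 15 measured genes of a 16-gene list of Ewing sarcoma markers lay above the filter on dim probe sets, a signal of 27.2 as the back-transformed mean over all 5 arrays. None of the 4 measured blood cell markers or the 2 measured glial markers did, nor did 6 of 7 epithelial and 3 of 5 endothelial markers. All 6 fibroblast and mesenchymal markers did, with summed signals of 3723 and 3631 after miR-483-5p, 2921 after miR-483-3p and 3854 and 3757 in control cells. The part of these sums in the miR-483-3p values was not tested. Of the 39 member probe sets, 22 lay above the filter and entered the tests, and the other 17 are given as values. Signals are in the arbitrary units of the deposited files, and differences are taken between values of log2(signal + 32), so that those of dim probe sets come out too small.

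ALCAM was lower with miR-483-5p in both of its probe sets above the filter. Probe set 201952_at had signals of 464 and 462 after miR-483-5p, 691 after miR-483-3p and 884 and 822 in control cells. Probe set 201951_at had 224 and 245 after miR-483-5p, 434 after miR-483-3p and 635 and 494 in control cells. In both, each miR-483-5p array lay below the miR-483-3p array, which lay below each control array. The third, 1569362_at, was dim everywhere, with 16.3 and 19.2 after miR-483-5p, 18.8 after miR-483-3p and 15.3 and 18.1 in control cells, and its groups overlapped between miR-483-5p and the control.

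**Figure D1:**
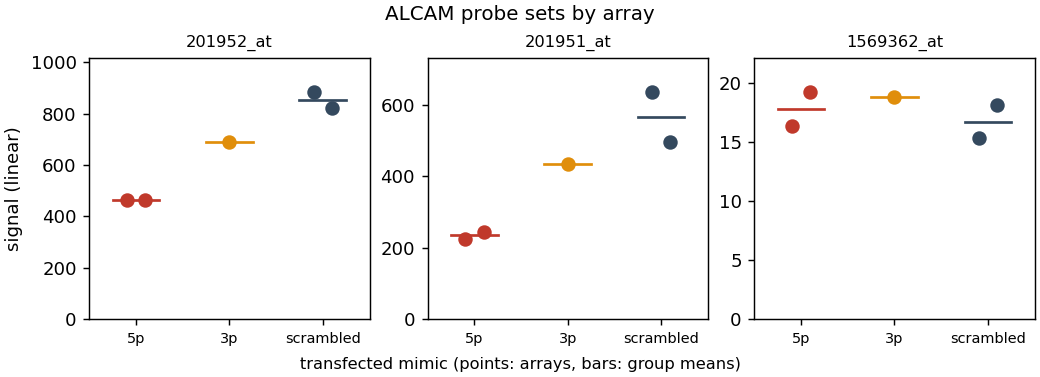
Linear signal of the 3 ALCAM probe sets, with 1 point per array and a bar at each group's mean, for miR-483-5p (2 arrays), miR-483-3p (1 array) and the scrambled control (2 arrays). In 201952_at and 201951_at both miR-483-5p points lie lowest, the miR-483-3p point between and both control points highest, while 1569362_at lies between 15.3 and 19.2 throughout.

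The mean of 201952_at was 463 ± 0.849 after miR-483-5p and 853 ± 43.8 in control cells (SD, n = 2 each). The log2 difference was -0.84 (SE 0.15), 1.79-fold lower on that scale, with a limma 95% interval of -1.20 to -0.48. For 201951_at the means were 234 ± 14.9 after miR-483-5p and 564 ± 99.2 in control cells (SD, n = 2 each), with a log2 difference of -1.16 (SE 0.18), 2.23-fold lower, and an interval of -1.58 to -0.73. The 2 control arrays themselves differed by 0.34 on the log2 scale in 201951_at and by 0.10 in 201952_at, less than either difference from miR-483-5p. Among the 32768 probe sets tested, 201951_at had the 25th lowest p and 201952_at the 58th. Their unadjusted limma p-values were 0.000413 and 0.0010, and their Benjamini-Hochberg adjusted p-values of 0.495 and 0.514 did not pass the threshold of 0.05. Of the 32768, 0 passed it, and 8.33% of those tested had an unadjusted p under 0.05.

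With miR-483-3p, ALCAM was nearer to the control. The single array differed from the control by -0.29 (SE 0.18) in 201952_at and -0.35 (SE 0.22) in 201951_at, with limma adjusted p = 0.960 and 0.957. With 1 control array left out, 201951_at stood at -0.18 (first array out) or -0.52 (second array out). Those tests assume that a lone array varies as the pairs do. The direct difference of miR-483-5p minus miR-483-3p was -0.55 (interval -0.99 to -0.11) in 201952_at and -0.81 (interval -1.33 to -0.29) in 201951_at. Unadjusted limma p-values of the direct comparison were 0.0223 and 0.00822, and adjusted p-values of 0.832 and 0.785 did not pass, so the test did not call ALCAM different between the arms.

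Genes with the profile most like ALCAM were picked by the root mean square difference from 201952_at over the 5 arrays, each gene taken relative to its own control mean, among 14582 genes. The closest 5 were RAB29, a small GTPase (0.049), TIMP2, a metalloproteinase inhibitor (0.061), NCS1, a calcium sensor (0.075), TPRG1L (0.086) and ARHGEF28 (0.091). RAB29 had signals of 123 and 132 after miR-483-5p, 202 after miR-483-3p and 247 and 246 in control cells. TIMP2 had 1171 and 1180.4 after miR-483-5p, 1880 after miR-483-3p and 2142 and 2073 in control cells. Each of the 5 was lowest in both miR-483-5p arrays and intermediate with miR-483-3p, as the measure of likeness requires. The measure rests on few arrays and is a description.

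MCAM, an endothelial and tumour cell adhesion molecule, gave different answers by probe set. Of its 6 probe sets, all above the filter, 209087_x_at and 1568191_at are listed for MCAM alone, and the other 4 are also listed for MIR6756, so their signal is not assigned to 1 gene. Probe set 209087_x_at had 406 and 479 after miR-483-5p, 357 after miR-483-3p and 340.4 and 325 in control cells, and both miR-483-5p arrays were highest. Its log2 difference from the control was 0.37 (SE 0.16, limma adjusted p = 0.607). Probe set 1568191_at had 46.4 and 73.8 after miR-483-5p, 55.2 after miR-483-3p and 56.8 and 59.6 in control cells, so the miR-483-5p arrays fell on either side of both controls.

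Among the shared probe sets, 210869_s_at had 432 and 482 after miR-483-5p, 315 after miR-483-3p and 279.8 and 332 in control cells. Its difference was 0.54 (SE 0.17, limma adjusted p = 0.539), the largest positive one of the 22 member probe sets. Probe set 211340_s_at had 574 and 469 after miR-483-5p, 404 after miR-483-3p and 409 and 399 in control cells, a difference of 0.34, again without overlap, and stood at 0.20 when the first miR-483-5p array was dropped. The brightest, 211042_x_at, went the other way, with 1051 and 1113 after miR-483-5p, 1208 after miR-483-3p and 1124 and 1331 in control cells, a difference of -0.17 (adjusted p = 0.800) that ran from -0.29 to -0.054 as single arrays were left out. In 209086_x_at the groups overlapped at a difference of 0.24 (adjusted p = 0.761), with a range of 0.076 to 0.41 as single arrays were left out. The names of 3 of the 6 end in x_at, which marks probe sets whose probes may also bind other transcripts. With miR-483-3p the 6 differences from the control lay between -0.05 and 0.12.

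**Figure D2:**
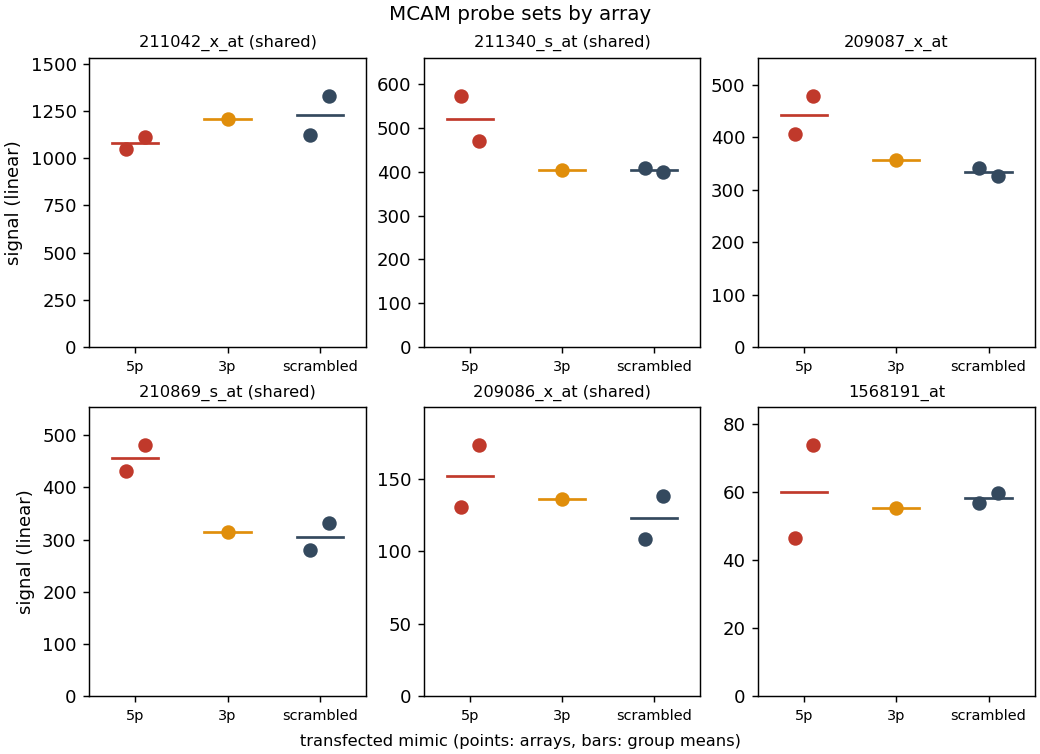
Linear signal of the 6 MCAM probe sets, with 1 point per array and a bar at each group's mean; "shared" marks the 4 also listed for MIR6756. Both miR-483-5p points lie above both control points in 211340_s_at, 209087_x_at and 210869_s_at and below them in 211042_x_at.

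CD99 was bright and differed little between groups. Probe set 201029_s_at had 5093 and 4622 after miR-483-5p, 4381 after miR-483-3p and 4524 and 5071 in control cells, and 201028_s_at had 3862 and 3378 after miR-483-5p, 3211 after miR-483-3p and 3641 and 3796 in control cells. The log2 differences of miR-483-5p from the control were 0.02 (interval -0.36 to 0.40) and -0.04 (interval -0.42 to 0.34), and in both the 2 groups overlapped. The miR-483-3p array was the lowest of the 5 in both probe sets, at -0.13 and -0.21 from the control, with limma adjusted p = 0.999 and 0.977.

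CDH11, the cadherin of mesenchymal and bone-forming cells, had 4 probe sets above the filter. Its brightest, 207173_x_at, had 2344 and 2214 after miR-483-5p, 1958 after miR-483-3p and 2339 and 2073 in control cells, a difference of 0.05 for miR-483-5p. Probe set 207172_s_at had 641 and 742 after miR-483-5p, 533 after miR-483-3p and 647 and 623 in control cells. The miR-483-3p array was the lowest in both. Probe set 236179_at had 576 and 471 after miR-483-5p, 489 after miR-483-3p and 419 and 467 in control cells, while 239286_at had 144 and 136 after miR-483-5p, 119 after miR-483-3p and 181 and 145 in control cells. These last 2 did not overlap between miR-483-5p and the control and went opposite ways, by 0.22 and -0.18, with limma adjusted p = 0.758 and 0.800. As single arrays were left out, 236179_at ran from 0.083 to 0.36 and 239286_at from -0.31 to -0.041. The neural cadherin CDH2 had 1 probe set above the filter, 203441_s_at, with 62.5 and 55.6 after miR-483-5p, 59.9 after miR-483-3p and 55.1 and 67.4 in control cells. The control arrays spanned all the others there, and the difference was -0.03 (interval -0.41 to 0.35).

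**Figure D3:**
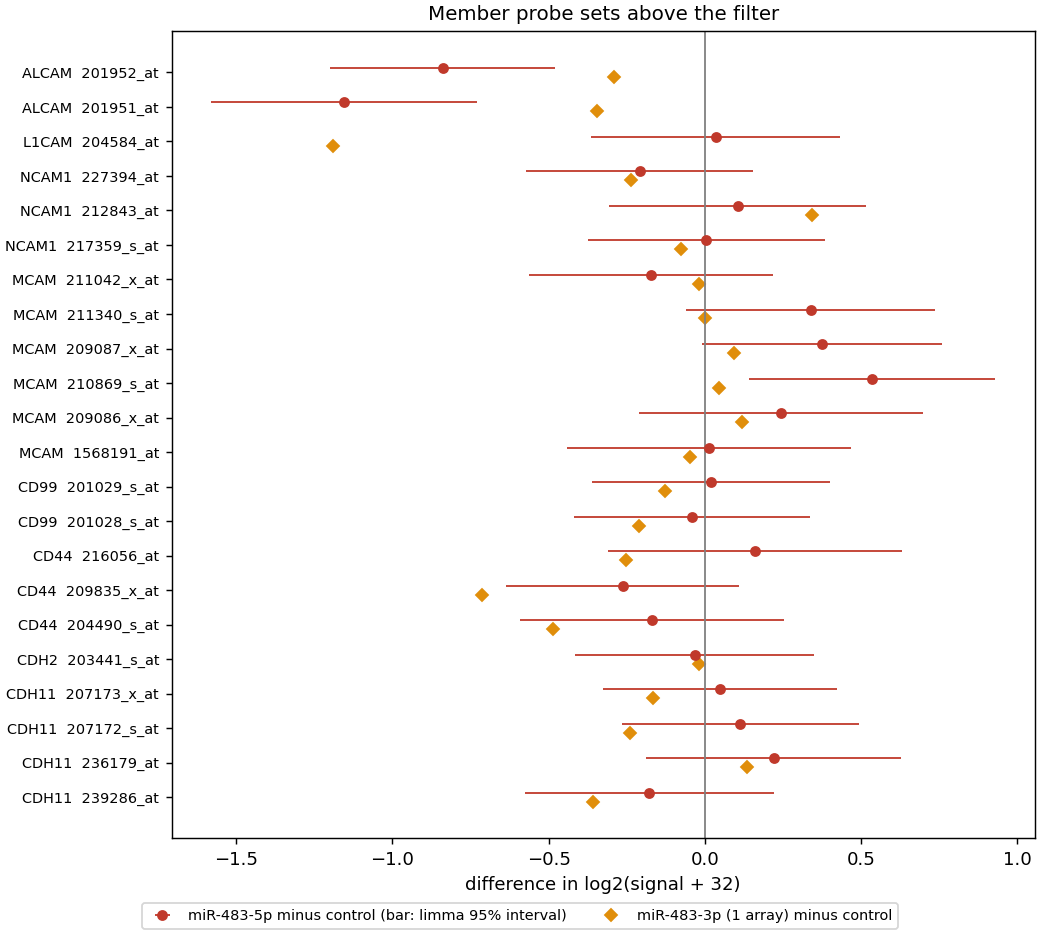
Difference from the scrambled control in log2(signal + 32) for the 22 member probe sets above the filter; circles with limma 95% intervals are miR-483-5p and diamonds are the single miR-483-3p array. The miR-483-5p intervals of both ALCAM probe sets lie below 0 and that of MCAM 210869_s_at above it, and the miR-483-3p diamond of L1CAM 204584_at stands at -1.19.

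Most probe sets of NCAM1, L1CAM and CD44 were dim, and without detection calls their distance from background is unknown. NCAM1, the neural cell adhesion molecule, had 3 of 7 probe sets above the filter. Its brightest, 227394_at, had 102 and 97.4 after miR-483-5p, 97.1 after miR-483-3p and 114 and 126 in control cells, so that both mimics lay below the control arrays, by -0.21 (interval -0.57 to 0.16) and -0.24. The next, 212843_at, had 43.6 and 58.3 after miR-483-5p, 65.3 after miR-483-3p and 39.9 and 50.0 in control cells, and 217359_s_at had 45.6 and 40.5 after miR-483-5p, 38.9 after miR-483-3p and 38.0 and 47.8 in control cells. Both overlapped between miR-483-5p and the control. The other 4 NCAM1 probe sets ran from 2.6 to 35.9.

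For L1CAM, a neural adhesion molecule that promotes outgrowth and migration, the 2 mimics gave unlike values in 1 probe set. Probe set 204584_at had 55.3 and 62.3 after miR-483-5p, 6.8 after miR-483-3p and 64.8 and 49.0 in control cells. The miR-483-3p array stood far below the other 4, which overlapped. The log2 difference from the control was -1.19 for miR-483-3p and 0.04 (interval -0.36 to 0.43) for miR-483-5p. The direct difference of miR-483-5p minus miR-483-3p was 1.23. That signal of 6.8 rests on a single array and lies under the filter's 27.2, which 204584_at passed through the other arrays. No p-value is therefore printed for its differences with miR-483-3p, which enter only the counts over all members below. The second L1CAM probe set, 204585_s_at, had 4.0 and 4.6 after miR-483-5p, 5.3 after miR-483-3p and 4.5 and 5.4 in control cells.

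CD44 had 13 probe sets, and no array exceeded a signal of 45.1 in any of them. Only 3 lay above the filter, and the other 10 ran from 2.6 to 41.2. Probe set 209835_x_at had 25.8 and 28.7 after miR-483-5p, 11.4 after miR-483-3p and 43.1 and 35.3 in control cells, and each mimic lay below both control arrays. The differences were -0.26 (limma adjusted p = 0.689) for miR-483-5p and -0.71 for miR-483-3p. This probe set passed the filter through its control arrays, and its miR-483-5p signals lie on either side of the filter's 27.2. Its miR-483-3p signal of 11.4 lies under 27.2. Its p-value for that mimic is therefore not printed, and it enters only the count over all members below. Probe set 204490_s_at had 21.2 and 34.8 after miR-483-5p, 15.8 after miR-483-3p and 38.1 and 32 in control cells. In contrast, 204489_s_at, under the filter, had 8.7 and 13.0 after miR-483-5p, 41.2 after miR-483-3p and 13.0 and 12.6 in control cells, so the CD44 probe sets did not move together with miR-483-3p.

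**Figure D4:**
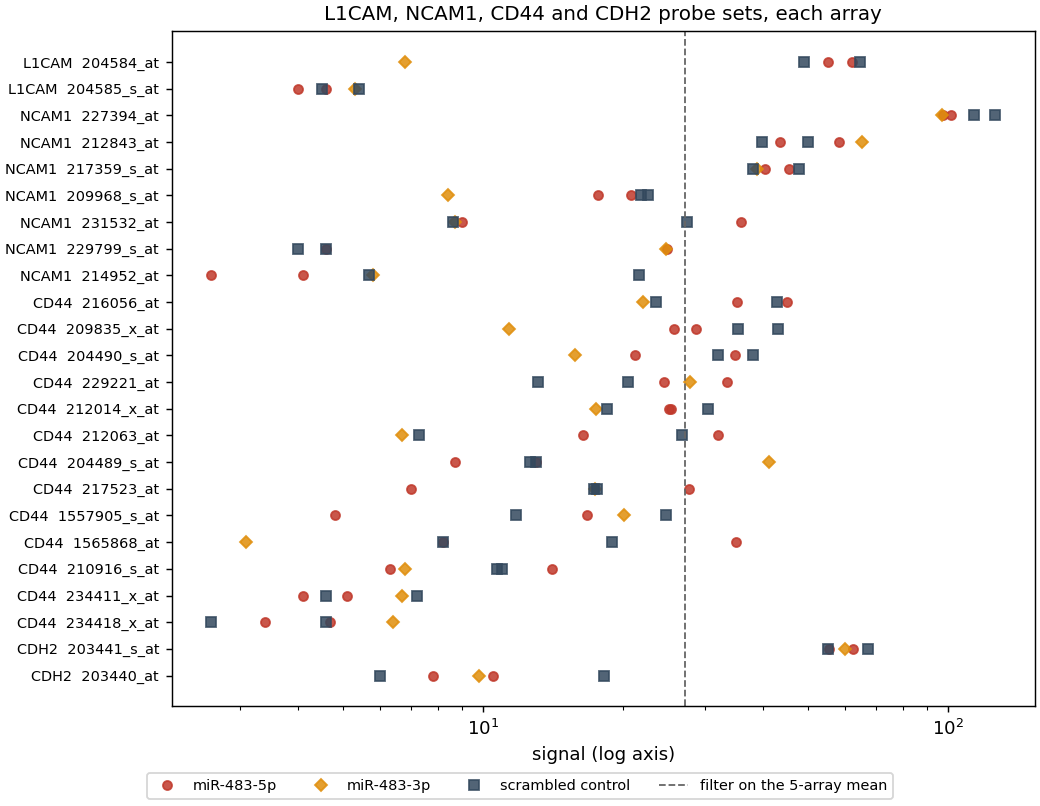
Signal on a log axis of every L1CAM, NCAM1, CD44 and CDH2 probe set in each array (circles miR-483-5p, diamonds miR-483-3p, squares scrambled control), with a dashed line at the filter of 27.2. The miR-483-3p diamond of L1CAM 204584_at lies at 6.8, away from the other 4 arrays, and all CD44 points lie at 45.1 or less.

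Over all 39 member probe sets, the miR-483-5p arrays lay above both controls in 5, below both in 8 and overlapped them in 26. These counts include the 17 under the filter, and no share over the whole array was taken to set beside them. Of the 22 above the filter, 4 lay above (18.2%) and 6 below (27.3%), where all probe sets tested had 18.5% above and 21.2% below. The 22 had a median log2 difference of 0.02, beside -0.02 over all tested. An unadjusted limma p under 0.05 was found for 3 of the 22, against 8.33% of all probe sets tested. Those were the 2 of ALCAM, which are from 1 gene, and 210869_s_at of MCAM and MIR6756. With miR-483-3p, 13 of 22 (59.1%) lay below both controls and 3 (13.6%) above, where all probe sets tested had 35.6% below and 32.5% above. Their median was -0.15, beside -0.01 over all tested, and 2 of the 22 had an unadjusted p under 0.05, against 5.6% of all tested. Those were L1CAM 204584_at and CD44 209835_x_at, whose miR-483-3p signals lie under the filter and which passed it through other arrays. For that reason their count is not read as an excess over all tested. The 13 hold both of them, and also CD44 204490_s_at and 216056_at, whose miR-483-3p signals of 15.8 and 22.1 lie under the filter too. The 59.1% and the median of -0.15 rest on 1 array and partly on such probe sets, so neither is read as an excess. In the direct comparison, the miR-483-5p arrays lay above the miR-483-3p array in 14 of 22 (63.6%, beside 33% of all tested) and below it in 4 (18.2%, beside 32.8%). There, 4 of the 22 had an unadjusted p under 0.05, against 5.71% of all tested: both ALCAM probe sets, L1CAM 204584_at and 210869_s_at of MCAM and MIR6756. Of these, L1CAM 204584_at has the limit given above, a miR-483-3p signal under the filter. It is also among the 14 that lay above, as are CD44 209835_x_at, 204490_s_at and 216056_at, which have the same limit. The 63.6% is therefore not read as an excess over all tested. Probe sets of 1 gene share its transcripts, and the 3 comparisons share arrays, so the counts in this paragraph are not independent.

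Other adhesion genes were grouped in 5 lists, chosen with earlier results of these data known, with each gene taken by its brightest probe set. No gene of these lists passed limma's adjusted threshold for miR-483-5p. Of 14590 genes above the filter, 4.25% were higher and 4.48% lower with miR-483-5p at an unadjusted p under 0.05, and the arrays did not overlap in 20.4% that were higher and 22.2% that were lower. Their median difference was -0.01.

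Catenins and junction adaptors, which tie adhesion molecules to the cytoskeleton, were higher with miR-483-5p in 19 of 24 genes above the filter. Their median log2 difference was 0.15, beside 7077 of all 14590 genes higher and a median of -0.01. The arrays did not overlap in 13 that were higher and 3 that were lower, and 2 higher genes and 1 lower gene had an unadjusted limma p under 0.05, a count of 3 that became 1 with any single paired array out. Under the alternatives that kept every array, that count ran from 1 (pseudocount of 1) to 7 (intensity trend or pseudocount of 100). The median stayed between 0.12 and 0.21 under the alternatives tried. With miR-483-3p, 17 of 24 were higher, with a median of 0.15, beside 7268 of all 14590 genes higher and a median of -0.0013. Vinculin (VCL), which links junctions to actin, had 1283 and 1352 after miR-483-5p, 1031 after miR-483-3p and 1012 and 973 in control cells. Its difference of 0.40 (adjusted p = 0.581) was not shared by a dimmer probe set at -0.57. NF2, the ERM-related tumour suppressor merlin, averaged 174 ± 9.26 after miR-483-5p against 109 ± 46.7 in the control (SD, n = 2 each), with 76.4 and 142 in the 2 control arrays. Its difference was 0.58, and 7 other NF2 probe sets above the filter gave -0.07 to 0.20. The ankyrin ANK3, a membrane scaffold, averaged 31.9 ± 2.19 after miR-483-5p against 60 ± 3.11 in the control (SD, n = 2 each), at -0.53 (adjusted p = 0.528). The other ANK3 probe set above the filter gave -0.13. CTNNA3, an alpha-catenin, was dim at -0.22.

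The 41 measured immunoglobulin superfamily genes other than the members had a median of 0.01, with 23 higher and 18 lower with miR-483-5p. The arrays did not overlap in 3 that were higher and 8 that were lower, and 3 genes, all lower, had an unadjusted p under 0.05, a count that ran from 1 to 7 as single arrays were left out. Basigin (BSG), a surface inducer of metalloproteinases, had 1943 and 1804 after miR-483-5p, 2051 after miR-483-3p and 2584 and 2520.3 in control cells, a difference of -0.44 (SE 0.15, limma adjusted p = 0.565). MADCAM1, an integrin ligand, was at -0.58 (adjusted p = 0.525). The neural adhesion molecules OPCML and CADM1 were highest among those without overlap, at 0.28 and 0.26. Their other probe sets above the filter gave 0.41 for OPCML and 0.37, 0.66 and -0.12 for CADM1. The list median turned to -0.08 without the second miR-483-5p array and to -0.03 without the first control array.

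Of 30 cadherins above the filter, 12 were higher and 18 lower after miR-483-5p, at a median of -0.07 and no gene at an unadjusted p under 0.05 (0 to 2 as single arrays were left out), where 4.25% and 4.48% of all genes had one in each direction. CDH17 had 35.8 and 74.0 after miR-483-5p, 31.9 after miR-483-3p and 33.9 and 19.6 in control cells, a difference of 0.54 without overlap, with a wide gap between its miR-483-5p arrays and a control mean of 26.8, under the filter. FAT3 was higher (0.25) without overlap, but its other probe sets gave -0.11 and -0.21. DSC2 (-0.38), a desmosomal cadherin, and PCDH9 (-0.32) were lower without overlap. The cadherin median was 0.01 when the first miR-483-5p array was left out. The integrin list, 11 higher and 15 lower of 26, had a median of -0.08, with 1 gene higher and 4 lower at an unadjusted p under 0.05. As single arrays were left out, the integrin median ran from -0.16 (without the second control array) to -0.035 (first miR-483-5p array out). The count of 5 genes became 4 or 2 with the first or second miR-483-5p array out and 1 or 2 with the first or second control array out. Kindlin-2 (FERMT2), an integrin activator, had 408.8 and 409 after miR-483-5p, 280.0 after miR-483-3p and 267 and 268 in control cells, a difference of 0.56 (SE 0.15, limma adjusted p = 0.521). Its other probe sets gave 0.52 and 0.02. ITGA7 was at 0.33, with 0.045 in its other probe set, also above the filter. The integrin chains ITGB3 and ITGAL were at -0.53 and -0.52. Dimmer ITGB3 probe sets above the filter gave 0.17, 0.14 and -0.22. ITGAL, 1 of the 4 lower genes, averaged 16.8 after miR-483-5p, under the filter, and passed it only through the other arrays, and its second probe set, under the filter, was at 0.20. With the filter at the 60th percentile the integrin median was 0.01 over 19 genes.

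**Figure D5:**
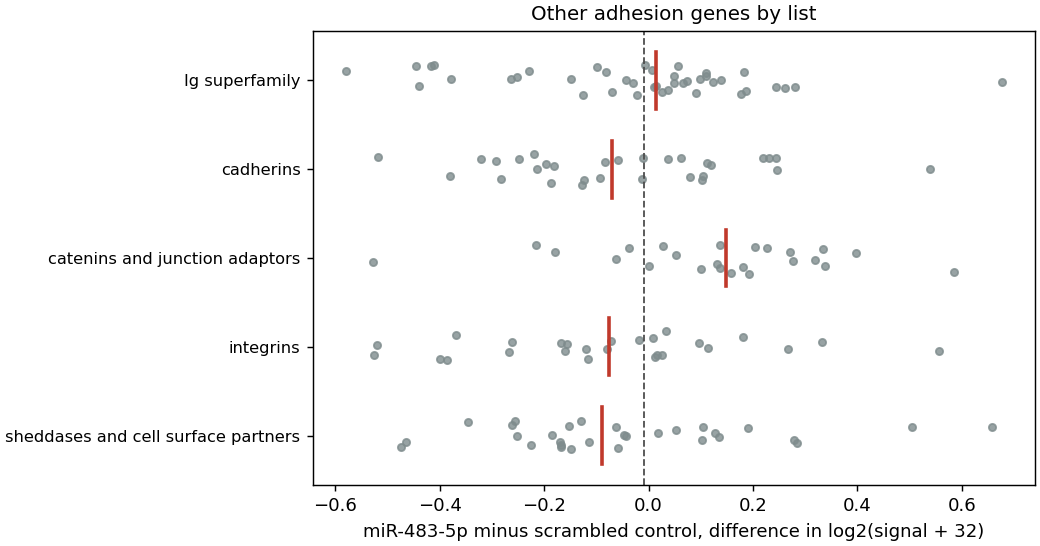
Difference of miR-483-5p minus the scrambled control in log2(signal + 32) for the genes of 5 adhesion lists above the filter, 1 point per gene, with a bar at each list's median and a dashed line at the median of all 14590 genes. The bar of the catenins and junction adaptors stands at 0.15, and those of the other 4 lists between -0.09 and 0.01.

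Sheddases and surface partners, 11 higher and 19 lower of 30, had a median of -0.09 (0.0028 without the second miR-483-5p array), with 2 genes in each direction at an unadjusted p under 0.05, 4 in all and 2 with either control array out. ADAM17, a protease that releases the ALCAM ectodomain, had 326 and 272 after miR-483-5p, 296 after miR-483-3p and 319 and 304 in control cells, and the groups overlapped. CD6, the lymphocyte receptor for ALCAM, had 81.2 and 34.9 after miR-483-5p, 73.9 after miR-483-3p and 67.6 and 75.8 in control cells, also overlapping. HMMR, a hyaluronan receptor that also acts at the spindle, averaged 670.3 ± 97.2 after miR-483-5p against 411 ± 23.6 in the control (SD, n = 2 each), at 0.66 (limma adjusted p = 0.521), with 0.71 in its other probe set. The tetraspanin CD9, which associates with ALCAM and ADAM17 at the surface, was at 0.51 with miR-483-5p (limma adjusted p = 0.553) and 0.55 on the single miR-483-3p array. The other CD9 probe set above the filter gave 0.25 with miR-483-5p. FGFR1, a receptor that NCAM1 and CDH2 engage, was at -0.47, with -0.51 to 0.13 in its other probe sets, and the gamma-secretase subunit PSENEN at -0.46. The polysialyltransferases of NCAM1, ST8SIA2 and ST8SIA4, lay under the filter. ADAM17, CD6 and the polysialyltransferases were named after their values were seen, for their known relation to ALCAM or NCAM1.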

How the data were processed

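The authors deposited 1 linear intensity per probe set and array from an Affymetrix human genome array. GCOS and Partek appear in the submitters' processing notes. For the step from probes to signals, no method is given in these sources, and no detection calls were used. The 2% trimmed mean lay between 149.7 and 149.98 on every array, so the deposited columns share 1 scale.

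Control probe sets (62) were left out. Of the other 54613, 41091 carry 1 gene symbol in the platform annotation, 1801 several and 11721 none, and 41043 of the first were matched to RefSeq (GRCh38.p14) by gene identifier. Probe sets with a mean log2 value at or above the 40th percentile, 32768, were fitted with limma 3.58.1 (R 4.3.3) on log2(signal + 32), a mean per group, 2 residual and 4.66 prior degrees of freedom, two-sided, with Benjamini-Hochberg adjustment at 0.05. The script was tested on simulated data. The genes named from the lists were the 2 highest and 2 lowest without overlap between miR-483-5p and the control, with additions stated, and all member probe sets, including the 4 shared with MIR6756. The number of arrays limits the precision. The members and lists were chosen with earlier results of these data known. Figures were drawn with matplotlib 3.10.9.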

Additional observations from a re-analysis of the deposited data

How the results depend on the processing

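The count of 0 probe sets called by limma in each of the 3 comparisons held under all 14 alternatives, including each left-out array (range 0 to 0), with 732 to 4196 at an unadjusted p under 0.05. Alternatives were median centring, quantile normalization, other filters and pseudocounts, 1 value per gene, an intensity trend, leaving out each paired array and a replicate block for first arrays against repeats. ALCAM 201952_at stayed between -0.89 and -0.76, and the mean of the gene's probe sets gave -0.65. With every array kept, the limma adjusted p of 201952_at ran from 0.107 to 0.690. With the replicate block 201952_at was at -0.84 (limma adjusted p = 0.383). Probe set 201951_at stayed between -1.33 and -0.98. L1CAM 204584_at with miR-483-3p ran from -2.88 with a pseudocount of 1 to -0.55 with a pseudocount of 100. The labels give no shared replicate number, and the block changed no call. With miR-483-5p, CDH2 203441_s_at turned to 0.0024 under median centring and 0.0015 under quantile normalization, and CD99 201029_s_at to -0.011 with the mean of its probe sets. Leaving out single arrays turned the sign of some small differences with miR-483-5p, whose ranges were -0.093 to 0.16 (L1CAM 204584_at), -0.022 to 0.23 (NCAM1 212843_at), -0.089 to 0.10 (NCAM1 217359_s_at), -0.20 to 0.23 (MCAM 1568191_at), -0.063 to 0.10 (CD99 201029_s_at), -0.14 to 0.055 (CD99 201028_s_at), -0.055 to 0.38 (CD44 216056_at), -0.13 to 0.063 (CDH2 203441_s_at) and -0.038 to 0.13 (CDH11 207173_x_at). The causes were not tested. Dim probe sets have no known distance from background.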
